A study of Mus musculus with 28 samples.

Results

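Untreated primary microglia carrying the Christchurch form of APOE3 were compared with untreated primary microglia carrying APOE3. The comparison held 10 of the 28 libraries of the series, 4 of Christchurch cells (APOE3S/S, genotype label Christchurch) and 6 of APOE3 cells (genotype label WT), all with the treatment label Control. The other 18 libraries were of cells of both genotypes given tau (12) or amyloid (6) and serve below only for reference. Cells came from mice, and RNA was read as 3′ tags from bulk cultures, so that fewer cells of a type and less RNA per cell cannot be told apart. The labels do not say whether libraries of a group came from separate animals or cultures, and p-values measure the spread between these libraries, which may be technical. Age, sex and how the microglia were cultured are not in the labels.

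Library titles follow 2 naming patterns, called here the SAN series and the second series. The SAN series held APOE3 libraries 1 to 3 and APOE3S/S libraries 1 and 2, and the second series held APOE3 libraries 4 to 6 and APOE3S/S libraries 3 and 4. The labels do not say what the patterns stand for. Fits that held both series carried a term for the series, unless stated below.

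Apolipoprotein E is a secreted lipid carrier that astrocytes and microglia make in the brain, and it is taken up through low-density lipoprotein receptors and heparan sulfate proteoglycans. The Christchurch substitution lies in the receptor-binding region and weakens binding to heparan sulfate. Microglia sense cytosolic DNA through cGAS, which makes a cyclic dinucleotide that activates STING. STING leads to type I interferon, and interferon switches on a large set of antiviral genes. The series title names this pathway and tau pathology, and the untreated comparison shows the genotypes before either protein was added.

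No gene passed the test between untreated APOE3S/S and APOE3 microglia. Of 12646 genes tested with edgeR's quasi-likelihood test, 0 passed an adjusted p of 0.05 (0.0%), and the smallest adjusted p was 0.857. At an unadjusted p under 0.05 there were 510 genes (4.03%), 286 higher (2.26%) and 224 lower (1.77%) in APOE3S/S. DESeq2 called 1 gene, Slc15a2, and limma-voom called 0. Without the filter on low counts edgeR called 243 of 24541 genes, of which 233 were also among the 12646. Of the 59 interferon-stimulated genes listed, 50 were among the 243 called without the filter. The count called without the filter was 39 when APOE3S/S library 2 was also left out. How many of those 39 were interferon-stimulated genes was not counted. The count at an unadjusted p under 0.05 moved with single libraries. It was 869 without APOE3 library 1 and 284 without APOE3 library 3, and it was 1203, 266, 1009 and 260 without APOE3S/S library 1, 2, 3 or 4. The count passing the adjusted threshold was 0 each time. The median standard error of a log2 fold change was 0.16. For 10744 genes (85.0%) the 95% interval lay within a 2-fold change in either direction, so that a larger difference than that lay outside the interval for those genes.

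Library totals ran from 14.4 to 26.6 M counts, with 20.2 M on average for APOE3S/S and 18.2 M for APOE3 (exact permutation test within series, two-sided, p = 0.44). APOE3S/S libraries 2 and 4 stood apart. The root-mean-square log2 distance of APOE3S/S library 2 to the other SAN libraries had a median of 0.66, against 0.45 to 0.52 for the other 4 SAN libraries. APOE3S/S library 4 had a median of 0.58 to the other second-series libraries, against 0.44 to 0.51 for the other 4. Microglia markers were high in all 10 libraries, with a summed level of 7826 to 10607 CPM (counts scaled to a common library total) in APOE3 and 8347 to 15211 CPM in APOE3S/S. Neuron markers summed to 1.32 to 4.40 CPM over both genotypes. Astrocyte markers summed to 34.8 to 65.8 CPM in APOE3 and 43.2 to 94.8 CPM in APOE3S/S. Oligodendrocyte lineage markers summed to 193 to 232 CPM in APOE3 and 212 to 248 CPM in APOE3S/S. Border macrophage and monocyte markers summed to 2731 to 7573 CPM in APOE3 and 4022 to 8342 CPM in APOE3S/S. Fibroblast and vascular markers spanned 980 to 4632 CPM in APOE3 and 1684 to 4965 CPM in APOE3S/S, nearly all of it Fn1, which macrophages also make. Over the 8 tested members of that list the median log2 fold change was -0.73, with 1 above 0 and 2 lower at an unadjusted p under 0.05, beside 1.77% of all genes. In the SAN series alone it was -2.24, with 4 of 7 lower, beside 3.70% of all genes in either direction. As mean log2 CPM minus untreated APOE3 of the same series, APOE3S/S libraries 1 and 2 were at -1.38 and -1.26, libraries 3 and 4 at -0.25 and -0.02, and APOE3 libraries at -0.82 to 0.54. The part of these markers in the results below was not tested. Among granulocyte and lymphocyte markers, S100a9, Mpo, Cd3d and Nkg7 were among those that had 0 counts in all 10 libraries.

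**Figure D1:**
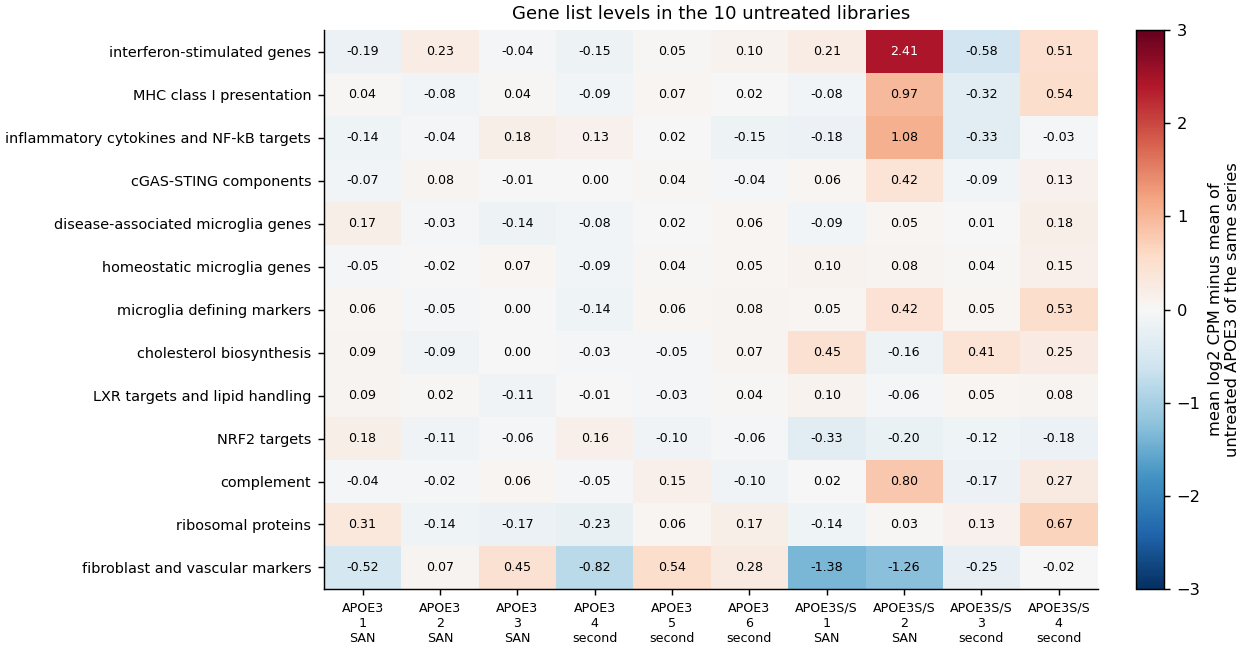
Level of 13 gene lists in each of the 10 untreated libraries, as the mean log2 CPM of the tested members minus the mean of the untreated APOE3 libraries of the same series. Interferon-stimulated genes were at 2.41 in APOE3S/S library 2 and at -0.58 to 0.51 in the other 9 libraries.

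Interferon-stimulated genes stood far above untreated APOE3 in 1 of the 4 APOE3S/S libraries, and none was called. The short promoter stretches below show an interferon response element, a motif found before many but not all such genes. They were taken from RefSeq (GRCm38.p6) and printed for named genes that had a match. Irf7, Oasl1 and Zbp1 were also looked at and gave no stretch, for want of a match or of a promoter entry. Capitals mark matches to GAAANNGAAA on either strand, overlapping matches included. Isg15 encodes a ubiquitin-like antiviral protein, and the stretch lies 111 to 12 bases before its start at chr4:156200830-156200929 on the minus strand. Cxcl10 encodes a chemokine, and the stretch lies 250 to 159 bases before its start at chr5:92349048-92349139 on the minus strand.
Isg15: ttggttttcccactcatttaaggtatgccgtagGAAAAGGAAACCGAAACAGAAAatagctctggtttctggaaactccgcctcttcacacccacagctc
Cxcl10: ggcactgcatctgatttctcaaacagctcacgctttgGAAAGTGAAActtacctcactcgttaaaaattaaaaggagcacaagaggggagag

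The motif was found in the 250 bases before the start of 23 of the 43 tested interferon-stimulated genes with an entry in the promoter table (53.5%), against 3.50% of the 9239 tested genes with an entry. A match is a description of the letters and not of a bound site.

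Of 59 interferon-stimulated genes listed, 58 were tested. All 58 had a fitted log2 fold change above 0, with a median of 0.81 against -0.01 over all genes. At an unadjusted p under 0.05, 25 of 58 were higher and 0 lower, beside 2.26% and 1.77% of all genes, and 0 passed the adjusted threshold. APOE3S/S library 2 had the highest CPM of the 10 libraries for 58 of 58 members. Without that library the median was 0.07, 42 of 58 were above 0, and 0 members had a p under 0.05, beside 2.06% of all 12886 genes then tested. In the SAN series alone the median was 1.48, and in the second series alone it was 0.07. APOE3S/S library 3 lay below all APOE3 libraries of its series for 53 of 58 members and above them for 0. Library 4 lay above them for 44 and below them for 5.

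Isg15 was at 23.0, 26.0, 18.5, 38.3, 55.1 and 58.4 CPM in APOE3 libraries 1 to 6. In APOE3S/S libraries 1 to 4 it was at 27.0, 254, 27.9 and 117 CPM. Libraries 2 and 4 lay above all APOE3 libraries, and libraries 1 and 3 lay among the 6. Within its own series, library 1 lay above all APOE3 values and library 3 lay below them. The log2 fold change was 1.65 ± 0.61 (SE, unadjusted p = 0.0195, adjusted p = 0.857), and 0.43 ± 0.34 without library 2.

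Irf7, a transcription factor of the interferon feedback loop, was at 132, 160, 165, 191, 221 and 173 CPM in APOE3 libraries 1 to 6. In APOE3S/S libraries 1 to 4 it was at 193, 1267, 91.5 and 443 CPM. Library 3 lay below all 6 APOE3 libraries and libraries 2 and 4 lay above them. Its log2 fold change was 1.42 ± 0.54, and 0.41 ± 0.34 without library 2.

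Oasl1, an oligoadenylate synthetase-like protein, was at 3.53, 5.63, 5.66, 7.29, 10.1 and 8.97 CPM in APOE3 and at 5.89, 73.3, 3.69 and 23.5 CPM in APOE3S/S libraries 1 to 4. Zbp1, a sensor of Z-form nucleic acids counted in both the interferon and cGAS-STING lists, was at 35.2, 45.8, 31.2, 70.0, 71.3 and 79.6 CPM in APOE3 and at 45.4, 313, 40.2 and 143 CPM in APOE3S/S. Ifi27l2a, a small interferon-induced membrane protein, was at 88.1, 86.0, 49.1, 97.1, 144 and 141 CPM in APOE3 and at 72.8, 292, 111 and 291 CPM in APOE3S/S. Library 3 lay below all APOE3 values of its series for Oasl1 and Zbp1, and among them for Ifi27l2a. For each of these genes, libraries 2 and 4 exceeded all 6 APOE3 libraries and libraries 1 and 3 did not. Their log2 fold changes were 1.87 ± 0.70, 1.35 ± 0.54 and 0.98 ± 0.37, and 0.51 ± 0.42, 0.30 ± 0.29 and 0.41 ± 0.30 without library 2.

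Cxcl10 stood out in library 2 alone. It was at 1.47, 1.56, 2.74, 0.92, 3.27 and 3.88 CPM in APOE3 and at 2.50, 42.7, 2.13 and 1.44 CPM in APOE3S/S. The log2 fold change of 1.77 ± 0.94 became -0.21 ± 0.43 without library 2. Ifi214, a DNA-binding protein of an interferon-inducible family, was at 0.47, 0.47, 0.70, 0.32, 0.95 and 0.80 CPM in APOE3 and at 1.44, 6.44, 0.61 and 3.16 CPM in APOE3S/S, with a log2 fold change of 2.12 ± 0.56 (unadjusted p = 0.00258). Its fold change was 1.42 ± 0.49 without library 2.

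The interferon level of library 2 was near that of treated libraries of its series, with tau and with amyloid. As mean log2 CPM over the 58 genes minus untreated APOE3 of the same series, library 2 was at 2.41 and library 1 at 0.21. Tau-treated SAN libraries were at 2.48 to 2.67 for APOE3 and 2.61 to 2.76 for APOE3S/S. Amyloid-treated libraries, all of the SAN series, were at 1.62 to 1.72 for APOE3 and 2.14 to 2.88 for APOE3S/S. Other lists varied. NRF2 targets were at -0.20 in library 2, against 0.53 to 0.93 in the tau-treated SAN libraries. In the amyloid-treated libraries they were at -0.16 to 0.70, with medians of -0.07 for APOE3 and -0.12 for APOE3S/S. MHC class I presentation genes were at 0.97 in library 2 and at 1.04 to 1.24 in the tau-treated SAN libraries. With amyloid they were at 0.43 to 0.55 for APOE3 and 0.87 to 1.21 for APOE3S/S. For the interferon genes, libraries 3 and 4 were at -0.58 and 0.51. Tau-treated second-series libraries were at 0.49 to 1.65 for APOE3 and 1.13 to 1.35 for APOE3S/S. For the MHC class I genes, libraries 3 and 4 were at -0.32 and 0.54. Tau-treated second-series libraries were at 0.08 to 0.72 for APOE3 and 0.47 to 0.49 for APOE3S/S on that list. The cause of the levels in libraries 2 and 4 was not tested.

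**Figure D2:**
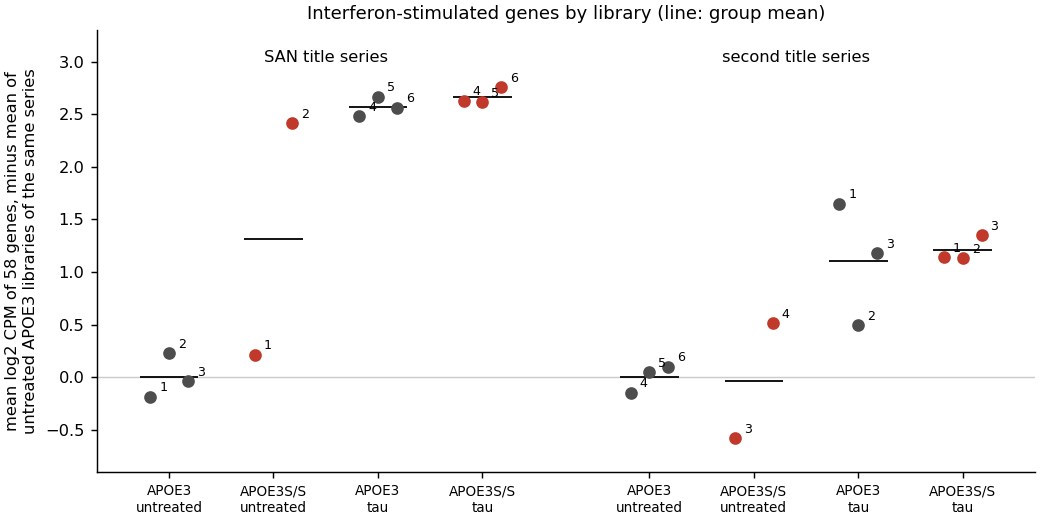
Mean log2 CPM of 58 interferon-stimulated genes in each untreated and tau-treated library, minus the mean of untreated APOE3 libraries of the same series; numbers are library numbers and lines are group means. Untreated APOE3S/S library 2 (2.41) lay beside the tau-treated SAN libraries (2.48 to 2.76).

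None of the cGAS-STING components was called. Mb21d1 (the gene of cGAS) was at 10.5, 16.6, 15.0, 19.3, 23.9 and 15.3 CPM in APOE3 and at 15.0, 29.4, 18.3 and 17.0 CPM in APOE3S/S, with a log2 fold change of 0.26 ± 0.23, and -0.06 ± 0.17 without library 2. Tmem173 (the gene of STING) was at 50.0, 51.9, 38.4, 64.7, 60.3 and 72.6 CPM in APOE3 and at 42.6, 66.1, 64.8 and 75.9 CPM in APOE3S/S, with a log2 fold change of 0.16 ± 0.14, and 0.01 ± 0.13 without library 2. Both genotypes overlapped for both genes. Over the 18 tested components the median was 0.07, and -0.00 without library 2. With unadjusted p under 0.05 there were 2 higher, Zbp1 and Lrrc8a, a subunit of a volume-regulated anion channel (0.38 ± 0.17), and 0 lower, beside 2.26% and 1.77% of all genes. Without library 2 there were 0 higher and 1 lower, Abcc1. Abcc1, an efflux transporter, had a log2 fold change of -0.42 ± 0.20. Ifnb1, which encodes interferon beta, was not tested for its low counts. It had 0 counts in all 6 APOE3 libraries and in APOE3S/S libraries 1 and 3, 4 counts in library 2 and 19 counts in library 4.

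None of the inflammatory cytokines and NF-kB targets was called, and their direction turned with library 2. Of 35 tested members 24 were above 0, the median was 0.11, and 2 were higher and 1 lower at an unadjusted p under 0.05, beside 2.26% and 1.77% of all genes. Without library 2, 10 of 35 were above 0, the median was -0.07, and 0 were higher and 6 lower, beside 2.06% of all genes in either direction. In the second series alone the median was -0.12, with 0 higher and 7 lower, beside 5.75% of all genes, and in the SAN series alone it was 0.32, with 5 higher and 0 lower, beside 3.70%. In library 2 the level was 1.08 above untreated APOE3. Tau-treated SAN libraries were at 1.93 to 2.43, amyloid-treated APOE3 libraries at 0.58 to 0.73 and amyloid-treated APOE3S/S libraries at 0.93 to 2.11. Tnf was at 14.9, 12.3, 22.7, 26.1, 17.1 and 15.5 CPM in APOE3 and at 12.6, 26.3, 14.0 and 12.5 CPM in APOE3S/S, and its log2 fold change was -0.17 ± 0.26, or -0.50 ± 0.22 without library 2. Il1b had a log2 fold change of -0.17 ± 0.40 and -0.66 ± 0.36 without library 2. Ptgs2, the inducible cyclooxygenase, was at 1.65, 2.58, 14.8, 21.4, 5.28 and 4.08 CPM in APOE3 and at 2.33, 2.65, 3.36 and 1.52 CPM in APOE3S/S; APOE3 libraries 3 and 4 were the high ones. Its log2 fold change was -1.73 ± 0.67, and -1.85 ± 0.75 without library 2. The chemokine Ccl12 was at 0.88, 0.88, 0.45, 8.64, 15.1 and 14.4 CPM in APOE3 and at 0.50, 17.0, 12.0 and 25.4 CPM in APOE3S/S, with library 2 set against 0.45 to 0.88 CPM in APOE3 of its series. Ccl12 had a log2 fold change of 1.80 ± 0.75 (0.38 ± 0.32 without library 2), and the cytokine Il18 one of 0.58 ± 0.25 (0.44 ± 0.27).

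MHC class I presentation genes had a median of 0.30, and 0.09 without library 2. Of the 22 members, 2 were higher at an unadjusted p under 0.05 and 0 lower, beside 2.26% and 1.77% of all genes. APOE3S/S library 4 lay above all APOE3 libraries of its series for 19 of 22 members and below them for 2. Library 3 lay below them for 19 and above them for 1. Complement genes had a median of 0.20, and 0.03 without library 2, with 3 of 13 higher and 0 lower. Without library 2, 0 members of either list were higher at that p.

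None of the genes tied to the microglial state was called. Microglia defining markers had a median of 0.19, with 11 of 12 above 0 and 4 higher and 0 lower at an unadjusted p under 0.05, beside 2.26% and 1.77% of all genes. Without library 2 the median was 0.25 and 0 were higher at that p. Disease-associated microglia genes (29 tested) had a median of 0.02 with 0 members at an unadjusted p under 0.05. Trem2, the lipid-sensing receptor of that state, was at 1323, 1034, 989, 965, 1036 and 1090 CPM in APOE3 and at 1027, 971, 1010 and 1457 CPM in APOE3S/S, with a log2 fold change of 0.05 ± 0.14. Igf1, a growth factor, Cd52, a lymphoid surface glycoprotein, and Ank, a pyrophosphate transporter, had the smallest p in that list, with log2 fold changes of -0.23 ± 0.12, 0.52 ± 0.27 and -0.21 ± 0.12. Homeostatic genes (22 tested) had a median of 0.04, with 3 higher at an unadjusted p under 0.05 (0 without library 2), namely the fractalkine receptor Cx3cr1 (0.43 ± 0.15) and the purinergic receptors P2ry12 (0.47 ± 0.17) and P2ry13 (0.44 ± 0.19). Without library 2 these were 0.31 ± 0.14, 0.31 ± 0.17 and 0.22 ± 0.17. P2ry12 was at 10.5, 14.9, 12.0, 9.77, 14.3 and 12.1 CPM in APOE3 and at 13.3, 22.4, 15.1 and 17.6 CPM in APOE3S/S, with library 1 among the APOE3 values.

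Genes among the 10 with the smallest p were taken next, none of them called. They were picked by p in these same libraries, so that separate values of the genotypes come with that choice. How many of all genes tested separate in this way was not counted. Slc15a2, a peptide transporter, was at 6.36, 5.36, 6.62, 6.10, 4.61 and 4.49 CPM in APOE3 libraries 1 to 6. In APOE3S/S libraries 1 to 4 it was at 3.83, 2.36, 2.08 and 1.76 CPM, all below the lowest APOE3 value. Its log2 fold change was -1.18 ± 0.20 (unadjusted p = 8.75e-05), and -1.10 ± 0.22 without library 2. DESeq2 called it (adjusted p = 0.00103). In the other treatments the same difference was -0.58 ± 0.19 with tau (adjusted p = 0.731) and -1.04 ± 0.25 with amyloid (adjusted p = 0.0712), not called.

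Il7r, the interleukin 7 receptor, was at 38.7, 26.0, 41.5, 64.4, 60.9 and 51.8 CPM in APOE3 and at 23.1, 14.7, 41.7 and 27.2 CPM in APOE3S/S. Within each series the APOE3S/S values lay below all APOE3 values, and the log2 fold change was -0.84 ± 0.18 (-0.72 ± 0.18 without library 2). Ier3, an immediate-early stress gene, was at 20.8, 23.7, 17.1, 32.4, 31.3 and 24.4 CPM in APOE3 and at 31.2, 32.9, 34.3 and 57.1 CPM in APOE3S/S, with a log2 fold change of 0.64 ± 0.15. Without library 2 it was 0.62 ± 0.17. Its values in APOE3S/S lay above all APOE3 values within each series, and library 4 was the highest. Dtnb, a dystrobrevin of the dystrophin complex, was at 6.53, 7.93, 7.95, 7.45, 6.11 and 8.50 CPM in APOE3 and at 5.06, 4.94, 5.35 and 4.72 CPM in APOE3S/S, with no overlap and a log2 fold change of -0.56 ± 0.15 (-0.55 ± 0.17 without library 2). Htra3, a secreted serine protease, and Igfbp4, an insulin-like growth factor binding protein, had log2 fold changes of 0.59 ± 0.15 and 0.56 ± 0.15. Without library 2 they were 0.63 ± 0.17 and 0.49 ± 0.16. Igfbp4 was at 118, 123, 81.0, 135, 138 and 151 CPM in APOE3 and at 140, 176, 166 and 252 CPM in APOE3S/S.

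**Figure D3:**
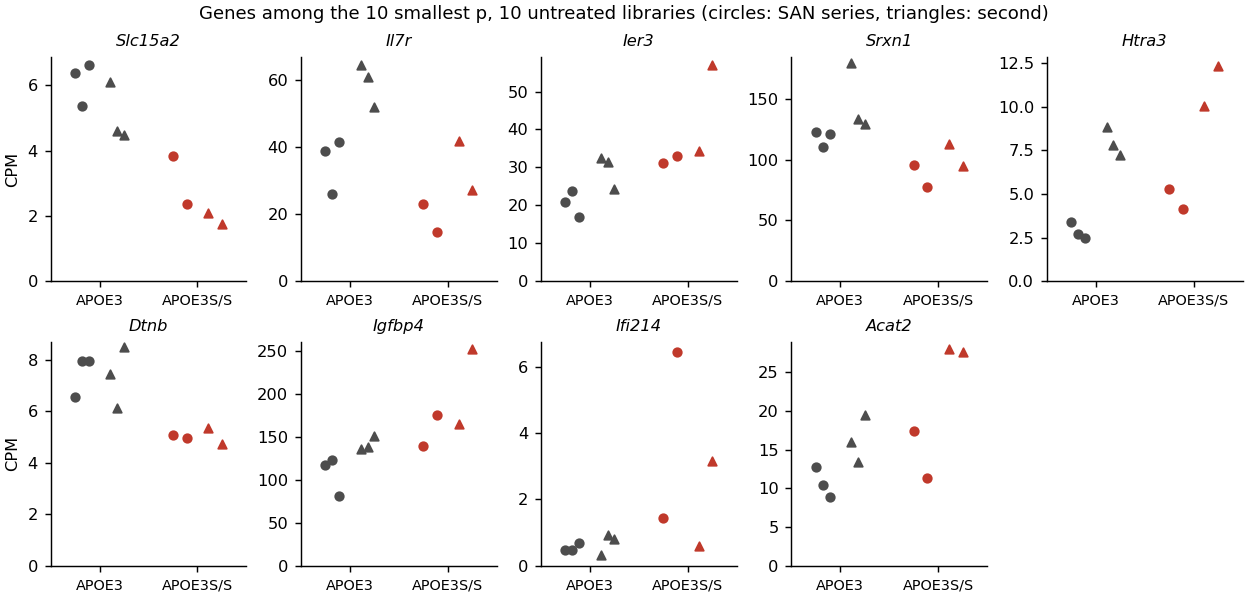
CPM in each of the 10 untreated libraries of genes among the 10 with the smallest p; gray is APOE3, red APOE3S/S, circles the SAN series and triangles the second series. The Slc15a2 and Dtnb values of APOE3S/S (1.76 to 3.83 and 4.72 to 5.35 CPM) all lay below the lowest APOE3 value (4.49 and 6.11 CPM). The genes were picked by p in these same libraries, so that such separation comes with the choice.

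Genes of cholesterol biosynthesis were all fitted above 0 in APOE3S/S, and none was called. The pathway is switched on by SREBP2 when sterols are low. These genes and the NRF2 genes below were named after their values were seen. All 22 tested members had a log2 fold change above 0, with a median of 0.18, and 5 were higher and 0 lower at an unadjusted p under 0.05, beside 2.26% and 1.77% of all genes. Of all 12646 genes, 6137 were above 0. A shared direction over all 10 libraries was not particular to this list. Ribosomal protein genes were above 0 for 28 of 28 (median 0.17) and complement genes for 13 of 13 (0.20). Cell cycle genes were above 0 for 27 of 30 (0.21) and oxidative phosphorylation genes for 25 of 27 (0.15). Without library 2, cholesterol genes were above 0 for 22 of 22, ribosomal protein genes for 28 of 28 and complement genes for 8 of 13. Cell cycle genes were then above 0 for 23 of 30 and oxidative phosphorylation genes for 25 of 27. In the SAN series alone, ribosomal protein genes were above 0 for 7 of 28 and complement genes for 13 of 13. Cell cycle genes were there above 0 for 23 of 30 and oxidative phosphorylation genes for 14 of 27. Without library 2 the median of the cholesterol genes was 0.31 and 14 were higher at that p, beside 2.06% of all genes. In library 2 the list was 0.16 below untreated APOE3 (-0.16), and in libraries 1, 3 and 4 it was above by 0.45, 0.41 and 0.25. In the SAN series alone the median was 0.17, with 19 of 22 above 0 and 0 higher at that p. In the second series alone it was 0.24, with 22 above 0 and 8 higher, beside 5.75% of all genes in either direction. Acat2, the cytosolic acetoacetyl-CoA thiolase, was at 12.7, 10.4, 8.91, 16.0, 13.4 and 19.4 CPM in APOE3 and at 17.3, 11.3, 28.0 and 27.6 CPM in APOE3S/S, with a log2 fold change of 0.61 ± 0.16 (0.75 ± 0.15 without library 2). Mvk, Mvd and Tm7sf2, of the mevalonate and later sterol steps, had log2 fold changes of 0.52 ± 0.14, 0.41 ± 0.14 and 0.34 ± 0.14. Without library 2 these were 0.52 ± 0.16, 0.48 ± 0.16 and 0.44 ± 0.13. Sqle, squalene epoxidase, was at 0.27 ± 0.15, and 0.43 ± 0.11 without library 2. With tau the median was 0.25, and all 22 were above 0. With amyloid it was -0.45, and 0 of 22 were above 0 with 4 called lower, beside 2.70% of all genes in either direction. These comparisons share no libraries with the untreated one.

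NRF2 targets, which answer oxidative stress, had a median below 0. Of 23 tested members 6 were above 0, the median was -0.19, and 7 were lower and 0 higher at an unadjusted p under 0.05, beside 1.77% and 2.26% of all genes. Without library 2 the median was -0.15 with 5 lower, beside 2.06% of all genes in either direction. In the SAN series alone the median was -0.20, with 4 of 23 above 0 and 8 lower, beside 3.70% of all genes in either direction, and in the second series alone it was -0.05, with 10 of 23 above 0 and 3 lower, beside 5.75%. Srxn1, a sulfiredoxin, was at 123, 111, 121, 179, 134 and 129 CPM in APOE3 and at 95.2, 77.5, 112 and 94.8 CPM in APOE3S/S, below all APOE3 values within each series, with a log2 fold change of -0.48 ± 0.12 (-0.43 ± 0.13 without library 2). Txnrd1, a thioredoxin reductase, was at 218, 201, 246, 318, 247 and 241 CPM in APOE3 and at 169, 132, 243 and 174 CPM in APOE3S/S, with a log2 fold change of -0.46 ± 0.13 (-0.38 ± 0.14 without library 2). Slc7a11, the cystine transporter, was at 33.0, 35.0, 69.3, 105, 55.1 and 49.5 CPM in APOE3 and at 25.9, 26.4, 47.2 and 18.9 CPM in APOE3S/S, with a log2 fold change of -0.94 ± 0.31 (-0.98 ± 0.35 without library 2). APOE3 libraries 3 and 4 were the highest for it, as they were for Ptgs2. Gclc and Gclm, the glutathione synthesis subunits, and Nqo1, a quinone reductase, were at -0.47 ± 0.17, -0.45 ± 0.17 and -0.74 ± 0.32. Without library 2 these were -0.35 ± 0.17, -0.33 ± 0.17 and -0.97 ± 0.33. With tau the median was -0.15, and with amyloid 0.23.

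**Figure D4:**
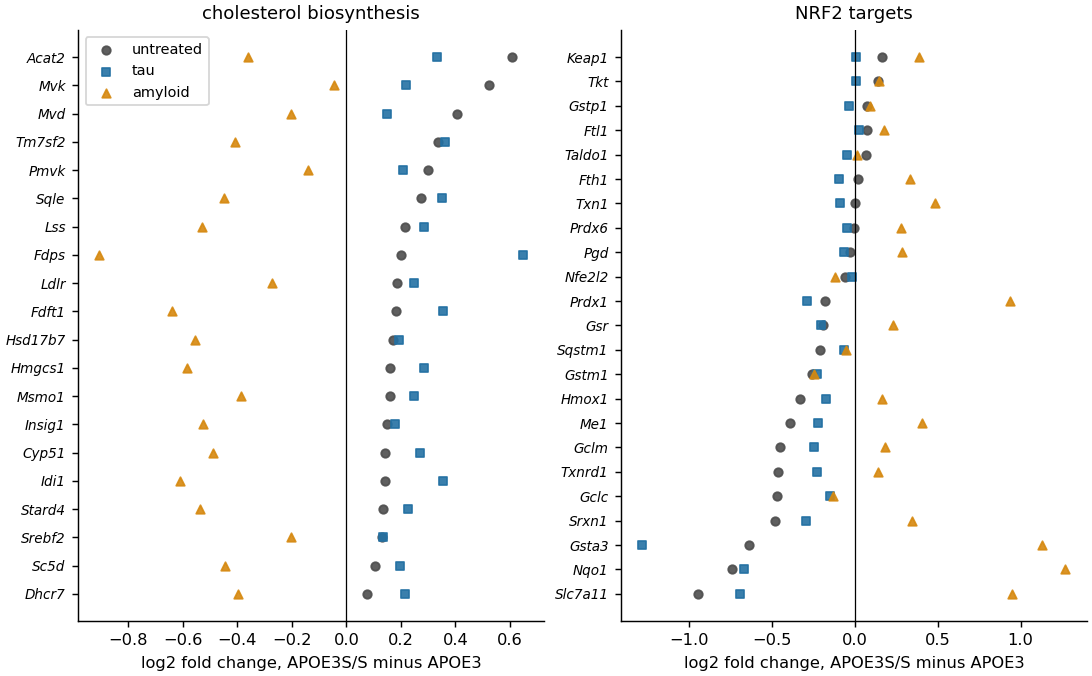
Log2 fold change, APOE3S/S minus APOE3, of tested cholesterol biosynthesis genes (left) and NRF2 targets (right), untreated (circles), with tau (squares) and with amyloid (triangles). The cholesterol genes lay above 0 untreated and with tau (medians 0.18 and 0.25) and below 0 with amyloid (median -0.45).

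Lipid-handling genes other than synthesis had no common direction. Liver X receptor targets (25 tested) had a median of 0.05. At an unadjusted p under 0.05, 2 were higher and 2 lower, beside 2.26% and 1.77% of all genes. Cd36, a scavenger receptor, was at 920, 800, 752, 1172, 1310 and 1163 CPM in APOE3 and at 621, 300, 1092 and 647 CPM in APOE3S/S, below all APOE3 values within each series, with a log2 fold change of -0.66 ± 0.20 (-0.45 ± 0.16 without library 2). The desaturase Scd2 was at 0.42 ± 0.13 and the phospholipid transfer protein Pltp at 0.28 ± 0.12. Without library 2 they were at 0.46 ± 0.14 and 0.24 ± 0.14. Receptors for APOE and tau with heparan sulfate enzymes (23 tested) had a median of 0.02 and 0 members at an unadjusted p under 0.05. In that list Sulf1, which removes sulfates from heparan sulfate, was at -1.42 ± 0.75, and the proteoglycans Sdc4 and Sdc3 at 0.29 ± 0.15 and 0.40 ± 0.24. Sdc3 was at 0.07 ± 0.17 without library 2. Sulf1 was at 0.18, 1.22, 1.85, 0.49, 6.98 and 4.42 CPM in APOE3 and at 0.72, 0.64, 0.38 and 1.56 CPM in APOE3S/S. Of the fibroblast collagens, Col1a1 was at 0.82, 3.86, 6.17, 0.32, 3.86 and 0.20 CPM in APOE3 and at 0.06, 0.36, 0.99 and 1.07 CPM in APOE3S/S, and its part in the Sulf1 values was not tested.

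Apoe itself was at 15.2, 15.4, 19.3, 12.7, 11.9 and 12.9 CPM in APOE3 and at 20.8, 16.9, 11.9 and 17.1 CPM in APOE3S/S. The log2 fold change was 0.20 ± 0.13 (unadjusted p = 0.158), and 0.26 ± 0.14 without library 2. The symbol is that of the mouse gene (chr7:19696109-19699188, minus strand), and a count per gene does not show which allele was read. Whether reads of the APOE3 and Christchurch forms were counted under that symbol was not tested. Within 20 Mb of Apoe, 16 of 349 tested genes (4.58%) had an unadjusted p under 0.05, near the 4.03% of all genes. Dmpk, a kinase gene at chr7:19083849-19093821, was chosen after its values were seen. It was at 1.41, 1.63, 1.15, 3.40, 3.74 and 3.08 CPM in APOE3 and at 2.39, 4.51, 4.49 and 4.55 CPM in APOE3S/S, above all APOE3 values within each series. Its log2 fold change was 0.82 ± 0.25 untreated, 0.68 ± 0.13 with tau and -0.24 ± 0.28 with amyloid, and 0.53 ± 0.21 untreated without library 2.

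Between APOE3S/S and APOE3 libraries both given tau, 1 of 12495 genes was called (0.008%), and 596 had an unadjusted p under 0.05 (4.77%). That gene, Kcnn4, encodes a calcium-activated potassium channel on chromosome 7, and among tau-treated libraries it was lower in APOE3S/S than in APOE3, with a log2 fold change of -0.93 ± 0.13 (adjusted p = 0.0233). Untreated it was at 5.12, 4.20, 7.76, 12.6, 12.4 and 12.5 CPM in APOE3 and at 3.61, 7.66, 6.81 and 7.02 CPM in APOE3S/S, with a log2 fold change of -0.45 ± 0.25, and -0.78 ± 0.19 without library 2. The call with tau was lost without any one of APOE3 tau libraries 3, 4, 5 or 6 or APOE3S/S tau libraries 2, 4, 5 or 6. With amyloid, 339 of 12536 genes were called (2.70%), and 0 were called without any one of APOE3 amyloid libraries 1, 2 or 3 or APOE3S/S amyloid library 2. Without APOE3S/S amyloid library 1 there were 989, and without library 3 there were 1513. The genotype difference itself changed with tau for 0 of 13442 genes (edgeR; 279 or 2.08% at an unadjusted p under 0.05; DESeq2 0) and with amyloid for 0 of 13399 (494 or 3.69%; DESeq2 0).

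**Figure D5:**
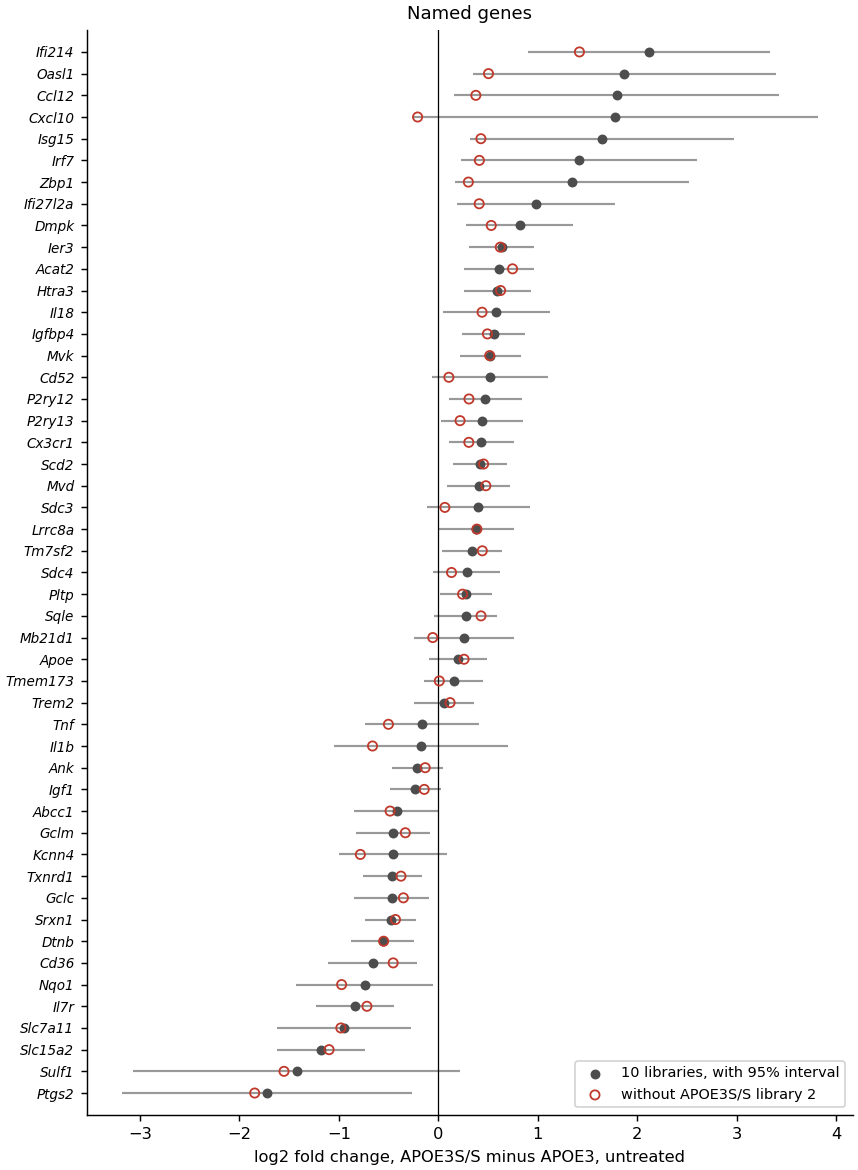
Log2 fold change, APOE3S/S minus APOE3, untreated, of the genes named here (filled: all 10 libraries with the 95% interval; open: without APOE3S/S library 2). Interferon genes moved toward 0 without library 2 (Isg15 from 1.65 to 0.43), while Slc15a2 stayed at -1.10.

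No gene passed a test of whether the genotype difference differed between the series (edgeR, 0 of 12646; 592 or 4.68% at an unadjusted p under 0.05; DESeq2 0). In the SAN series alone 467 genes (3.70%) and in the second series alone 761 (5.75%) had an unadjusted p under 0.05, with 0 called in each. Without APOE3S/S library 1, 103 genes passed the test between the series.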

How the data were processed

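The authors deposited 2 tables of gene counts (whole numbers, not normalized) for 28 microglia libraries, made by QuantSeq 3′ forward chemistry from column-purified RNA, per the labels' protocols. GRCm38 (mm10) and DESeq2 1.38.3 are named, without their roles, per the submitters' processing notes. Aligner and counter: not given in the sources used here. Of 60976 entries, 6360 held no numbers, 25 had no name (0 counts), 81 exact repeats and 108 further entries sharing a symbol (0.16% of counts) were dropped, and 24 date-like symbols (0.12% of counts) were not used. Coordinates came from GENCODE M21. Genes of chromosomes X and Y (1057 with counts) were left out before scaling.

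Counts were filtered with filterByExpr and scaled by TMM. After a test on simulated data, edgeR 4.0.16 in R 4.3.3 fitted quasi-likelihood models with Benjamini-Hochberg adjustment. The models had a term for genotype and, where both series were fitted, a term for series. DESeq2 1.42.0 and limma-voom 3.58.1 were alternatives. Values written ± are standard errors. Named genes were the 10 with the smallest p, the 3 with the smallest p in each of 7 lists, 11 preset genes, genes called with tau, and others named as chosen after their values were seen. The members and lists were chosen with earlier results of these data known. Promoter letters came from RefSeq. Some genes are not reported here by name, though counts and medians of lists include them.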

Additional observations from a re-analysis of the deposited data

Results flagged for a closer look

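Of 156 groups of library values examined (named genes and gene lists, untreated libraries of each genotype), 8 held a library set apart from the rest by more of the group's range than a 95% limit allows, and chance gives about 1 in 20. Among APOE3S/S libraries, library 2 was highest for Cxcl10 (42.7 CPM, next 2.50) and Tnf (26.3 CPM, next 14.0). Library 4 was highest for Ier3 (57.1 CPM, next 34.3) and Trem2 (1457 CPM, next 1027), and library 1 was lowest for Dmpk (2.39 CPM, next 4.49). Among APOE3 libraries, library 4 was highest for Srxn1 (179 CPM, next 134), library 3 for Igf1 (1280 CPM, next 1163) and library 1 for Trem2 (1323 CPM, next 1090).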

How the results depend on the processing

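For the untreated comparison the count of called genes was 0 with RLE scaling, a 10 CPM filter, limma-voom, either series alone, no series term and the fit of 22 libraries, and 0 (lowest and highest) without any one library. It was 243 without a filter, 1 with DESeq2 and 1 with genes of X and Y kept. With X and Y kept the gene was Gm47283 of chromosome Y, higher in APOE3S/S (log2 fold change 3.85 ± 0.40, edgeR adjusted p = 0.00870). Whether the sex of the cells differed between the genotypes was not tested. Chosen after seeing the data, no filter without APOE3S/S library 2 gave 39, DESeq2 without a filter 1, DESeq2 without library 2 gave 4, limma-voom without a filter 0, and leaving out libraries 2 and 4 gave 0. Without a filter 233 genes differed between series, 158 with tau, 789 with amyloid, 152 changed with tau and 57 with amyloid. DESeq2 called 11 with tau and 980 with amyloid. Leaving out single libraries gave 0 to 103 between series, 0 to 3 with tau, 0 to 1513 with amyloid, and 0 to 3 for the change with amyloid. The causes were not tested.

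With title number as a replicate block the counts were 0 untreated, 0 with tau and 193 with amyloid. Same-numbered untreated libraries correlated at -0.10, -0.15, -0.05 and 0.20, as deviations from their group mean within a series. With 2 APOE3S/S libraries in each series those deviations mirror each other, so the values cannot show whether the numbers mark pairs. The numbers were not taken as pairs.

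Of 1288 alternative values of 50 named genes, 1223 kept direction and side of the threshold, 36 newly passed it and 29 reversed. Without libraries 2 and 4 the log2 fold change was -0.26 for Isg15, -0.11 for Ifi27l2a, -0.43 for Oasl1, -0.25 for Zbp1, -0.18 for Ccl12, -0.10 for Cd52, 0.00894 for Ank, -0.034 for Sdc4, -0.072 for Tmem173, -0.28 for Irf7 and -0.069 for Trem2. Without library 2 it was -0.055 for Mb21d1 (no filter -0.047, DESeq2 -0.050) and -0.21 for Cxcl10 (no filter -0.20, DESeq2 -0.20). In the second series alone it was -0.042 for Sdc3, -0.14 for Mb21d1 and -0.59 for Cxcl10. In the SAN series alone it was 0.23 for Tnf, 0.43 for Il1b and -0.15 for Trem2. Trem2 was -0.11 without APOE3S/S library 4. Il1b was 0.22 without APOE3 library 4, 0.00829 and 0.00171 without APOE3S/S library 3 or 4, 0.13 with no series term and 0.072 with the replicate block. Leaving out single libraries gave a range of -0.055 to 0.38 for Mb21d1, -0.21 to 2.44 for Cxcl10, -0.66 to 0.22 for Il1b.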
